A study of Homo sapiens with 12 samples.

Results

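Genes induced by interferon and genes of the MHC class I antigen presentation pathway were followed in K562 cells given nilotinib, hemin or both. They form a list of 35 genes written by function and found by gene symbol among the 58735 genes counted. By role, the list holds sensors of viral RNA (DDX58, IFIH1), transcription factors (STAT2, IRF9, IRF1, IRF7), a feedback protease and a ubiquitin-like protein (USP18, ISG15), the IFIT family (IFIT1, IFIT2, IFIT3, IFIT5), the OAS family (OAS1, OAS2, OAS3, OASL), other antiviral effectors (MX1, MX2, ISG20, IFI6, IFI27, IFI35, IFI44, IFI44L), the IFITM family (IFITM1, IFITM2, IFITM3), MHC class I chains (HLA-B, HLA-C, HLA-E, B2M), and peptide loading with its transactivator (TAP1, TAP2, TAPBP, NLRC5).

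K562 is an established human erythroleukemia line. It carries the BCR-ABL1 fusion, whose kinase activity nilotinib blocks, and it turns toward hemoglobin synthesis when hemin is supplied. Total RNA was sequenced in 12 libraries, 3 biological replicates in each of 4 groups, with paired 150-base reads counted on genes. Mock DMSO cells received only the solvent, and their libraries held 50081268, 40418880 and 50506990 counts in the order of replicates 1, 2 and 3. Mock nilotinib cells received 0.1 μM nilotinib and no hemin (36893606, 33457078 and 34006073 counts). Hemin DMSO cells received solvent and then 50 μM hemin for 24 h (36153691, 37145048 and 41860655 counts). Hemin nilotinib cells received 0.1 μM nilotinib before, for 24 h by the paper's methods, and 50 μM hemin during the last 24 h (35333809, 35989983 and 40874699 counts). The sources differ on how long nilotinib had been present when the mock nilotinib cells were collected. Hemin and time of culture therefore cannot be told apart in the comparisons of hemin with mock. Between the nilotinib groups the length of exposure to nilotinib may differ as well and cannot be told apart from these. The same holds for the test of whether the nilotinib effect differs with hemin. All groups are of a single transformed line, so the values describe that line and not erythroid precursors in general.

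Type I interferons bind a receptor whose kinases activate a transcription factor complex that contains STAT2 and IRF9, and this complex binds the interferon-stimulated response element (ISRE) in front of its target genes. The targets include sensors of viral RNA, effectors such as the IFIT, OAS, MX and IFITM proteins, and genes of MHC class I presentation, in which the TAP transporter moves peptides into the endoplasmic reticulum, tapasin (TAPBP) holds the transporter beside empty class I molecules, and NLRC5 activates transcription of the class I genes. K562 is known for its low surface MHC class I, which makes it a common target for natural killer cells.

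Promoters were compared for the motifs that interferon signals act through. RefSeq promoter sequences (build GRCh38.p14) were matched by symbol for 26 of the 35 members, DDX58 under its newer symbol RIGI. The members without an entry were IRF7, USP18, IFIT2, OAS2, OASL, MX2, IFITM2, HLA-E and NLRC5. The 250 bases upstream of each start were searched on both strands for the ISRE core, GAAANNGAAA (TTTCNNTTTC on the opposite strand), and for the gamma-activated site (GAS), TTCNNNGAA, which reads the same on either strand. The ISRE core stood in 17 of the 26 members (65.4%) and in 839 of all 27305 promoters (3.07%), and the GAS letters in 6 of the 26 (23.1%; IRF9, IRF1, OAS1, IFI27, IFI35 and IFITM1) and in 1850 of all promoters (6.78%). The members were listed as genes of the interferon response and of class I presentation. Their high share of these motifs was built into that choice and is not a result of these data. Neighboring ISRE matches overlapped each other in IFIH1, ISG15, B2M, TAP1 and TAPBP, and an ISRE match overlapped a GAS match in IFI27. A match is a description of the letters and not a tested binding site, and where no match was found these letters are only missing from this window. Shown are the 8 promoters with an ISRE whose genes had the largest log2 fold changes in size among members that passed the test in any comparison, each from 40 bases before the farthest match to 40 bases after the nearest match or to the start of the gene. The positions are chr12:112938291-112938473 on the plus strand for OAS3, chr10:89327801-89327924 on the plus strand for IFIT3, chr10:89414483-89414567 on the plus strand for IFIT5, and chr2:162318685-162318883 on the minus strand for IFIH1. For IFIT1 the stretch is chr10:89392467-89392569 on the plus strand, for TAPBP chr6:33314079-33314138 on the minus strand, for IFITM3 chr11:320861-320952 on the minus strand, and for TAP2 chr6:32838748-32838837 on the minus strand. Starts are those of RefSeq and differ from the gene bounds of the count table, which are the ones printed with the members below: the stretches of TAPBP and IFITM3 lie wholly inside these bounds, that of IFIT5 outside them, and the other 5 partly inside. The sequences run 5′ to 3′ along the gene's strand, with the ISRE matches in capitals.
OAS3: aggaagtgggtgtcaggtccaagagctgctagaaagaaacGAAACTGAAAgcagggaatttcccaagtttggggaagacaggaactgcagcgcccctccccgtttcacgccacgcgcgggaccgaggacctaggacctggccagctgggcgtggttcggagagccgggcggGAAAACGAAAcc
IFIT3: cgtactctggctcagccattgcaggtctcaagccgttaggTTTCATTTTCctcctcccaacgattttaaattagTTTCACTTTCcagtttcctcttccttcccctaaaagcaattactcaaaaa
IFIT5: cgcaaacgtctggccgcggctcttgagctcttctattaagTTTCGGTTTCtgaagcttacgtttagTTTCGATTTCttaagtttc
IFIH1: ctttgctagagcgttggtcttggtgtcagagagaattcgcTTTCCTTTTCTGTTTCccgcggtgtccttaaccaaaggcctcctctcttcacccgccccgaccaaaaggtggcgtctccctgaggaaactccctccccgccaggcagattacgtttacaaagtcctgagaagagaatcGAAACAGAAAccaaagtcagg
IFIT1: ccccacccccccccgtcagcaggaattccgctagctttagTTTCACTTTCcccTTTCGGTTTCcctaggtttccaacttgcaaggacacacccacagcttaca
TAPBP: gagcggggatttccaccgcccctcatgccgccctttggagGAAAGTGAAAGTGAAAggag
IFITM3: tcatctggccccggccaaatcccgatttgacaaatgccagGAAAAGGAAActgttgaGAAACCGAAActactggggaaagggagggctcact
TAP2: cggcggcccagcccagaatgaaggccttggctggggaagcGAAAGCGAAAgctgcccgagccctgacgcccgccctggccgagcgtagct

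OAS3 had matches 134 to 143 and 3 to 12 bases upstream of its RefSeq start, TAPBP had overlapping matches 11 to 20 and 5 to 14 bases upstream, and TAP2 had its match 49 to 58 bases upstream. The set covers members that went in opposite directions with nilotinib: OAS3, IFIH1, TAPBP and the IFIT genes on one side, IFITM3 and TAP2 on the other.

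Levels are counts per 1e+06 counts of a library (CPM), after scaling of the libraries by edgeR's TMM factors, and values for the 3 libraries of a group are given in the order of replicates 1, 2 and 3. Genes with enough counts for a test by edgeR's filterByExpr numbered 20821, and 30 of the 35 members were among them. The other 5 were near 0: over the 12 libraries OAS1 had 6 counts in all, OAS2 19, OASL 13, IFI44 1 and IFI44L 1. A count of 0 in a library allows up to 3 counts, which is 0.054 to 0.0957 CPM depending on the library and covers counting error only. Fold changes, their standard errors (SE) and adjusted p were given by the quasi-likelihood test of edgeR, with Benjamini-Hochberg adjustment over all genes tested, in a single model of the 12 libraries, and a gene is said to have risen or fallen only at an adjusted p under 0.05. Each of the 12 libraries was left out in turn in every comparison, also those of groups outside the comparison, since all share the model's dispersion.

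Some members share sequence or position with other genes, and whether the counting used the strand is not given in the sources used here. On the same strand, IRF9 shares 48.4% of its exon bases with AL136295.5, which itself had 160, 167, 95 and 86 counts in mock DMSO, with nilotinib, with hemin and with both, and TAP2 shares 32.3% with AL669918.1, which had 1 count in all. IFITM1 and IFITM2 share 351 exon bases with each other (32.5% and 22.7% of their own), IFIT2 shares 8.68% with AL353751.1, and HLA-B and HLA-C share 35 bases. On the opposite strand, 22.0% of IRF1 lies over C5orf56, 21.3% of IFITM3 over AC136475.5, 17.8% of HLA-B over AL671883.2 and 9.49% of TAP1 over PSMB8-AS1. Of the 150-base stretches of USP18, 12.4% also occur in USP41. The values of these members are therefore uncertain to the extent that reads were split or merged between the genes.

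The labelled cell type was checked against lists of marker genes. All 10 erythroid markers averaged at least 1 CPM, HBZ the most at 2220 CPM. Summed per library, the erythroid markers came to 1270, 1820 and 2250 CPM in mock DMSO, 11200, 13600 and 11700 in mock nilotinib, 1120, 1390 and 1200 in hemin DMSO and 17900, 11400 and 9310 in hemin nilotinib. Of the 9 myeloid and monocyte markers 5 averaged under 1 CPM, SPI1 was the most abundant at 39.7 CPM, and the sums were 117, 118 and 105 CPM in mock DMSO, 21.9, 19.7 and 18.9 in mock nilotinib, 88.6, 115 and 96.4 in hemin DMSO and 10.6, 13.6 and 14.7 in hemin nilotinib. With hemin alone single myeloid markers moved in ways the sum does not show: CD14 rose by 4.26 and CSF1R by 3.03, while ITGAM fell by 0.82 and SPI1 fell by 0.33 on the log2 scale. With hemin alone the erythroid markers went both ways: KLF1 fell by 3.57, EPOR fell by 2.44, ALAS2 fell by 1.41, GATA1 fell by 0.91 and GYPB fell by 0.4 on the log2 scale, and HBZ rose by 1.22, HBG2 by 0.96 and HBG1 by 0.84. In every nilotinib library the erythroid sum lay above, and the myeloid sum below, those of every DMSO library. Megakaryocyte markers (4 of 8 under 1 CPM, ITGA2B the most abundant at 30.3 CPM) summed to 55.6 ± 13.7, 32.1 ± 5.25, 51.1 ± 21.2 and 19.5 ± 4.99 CPM (SD) in mock DMSO, with nilotinib, with hemin and with both. Plasmacytoid dendritic cell markers, which would mark a strong source of interferon, were all 3 under 1 CPM, with sums of 0.591, 0.767, 0.81 and 1 CPM in the same order. Of the 4 fibroblast and endothelial markers 2 were under 1 CPM, CDH5 had no count, COL1A1 led with 15.8 CPM, and the sums were 24.2, 21.2, 32.4 and 19.8 CPM. Within that sum COL1A1 rose by 0.96 with nilotinib alone and by 1.37 with hemin alone, while PECAM1 fell by 1.93 with nilotinib alone, fell by 1.17 with nilotinib under hemin and fell by 0.67 with hemin alone. The part of these shifts in the results on the interferon and MHC class I genes was not tested, and in bulk RNA fewer cells of a type and less RNA per cell cannot be told apart.

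The members spanned a wide range of levels. Compared between genes as CPM per kilobase of gene length, the most abundant in mock DMSO were IFITM1 (154 ± 5.69, mean ± SD, n = 3), B2M (55.4 ± 1.18), IFITM3 (54.8 ± 3.87), IFITM2 (44.4 ± 6.396), HLA-E (40.01 ± 2.68) and TAPBP (33.6 ± 2.07). B2M and IFITM3 overlapped within their SD, as did IFITM2 and HLA-E. The light chain B2M was thus present at a high level while the classical heavy chains were scarce, HLA-C at 2.19 ± 0.502 and HLA-B at 0.383 ± 0.149 CPM per kilobase. In hemin nilotinib the highest means were IFITM1 (65.7 ± 18.9), TAPBP (57.03 ± 5.23) and B2M (41.7 ± 5.302). STAT2 (22.2 ± 2.91), IFITM3 (18.6 ± 3.37) and ISG15 (18.31 ± 1.052) came next. There IFITM1 overlapped TAPBP and B2M within the SD, and STAT2, IFITM3 and ISG15 overlapped each other. NLRC5 had the lowest level of the 30 in mock DMSO, 0.00716 ± 0.00401 CPM per kilobase, and IFIT5, MX1, IFIT1 and IFIT2 were also near 0 there.

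**Figure D1:**
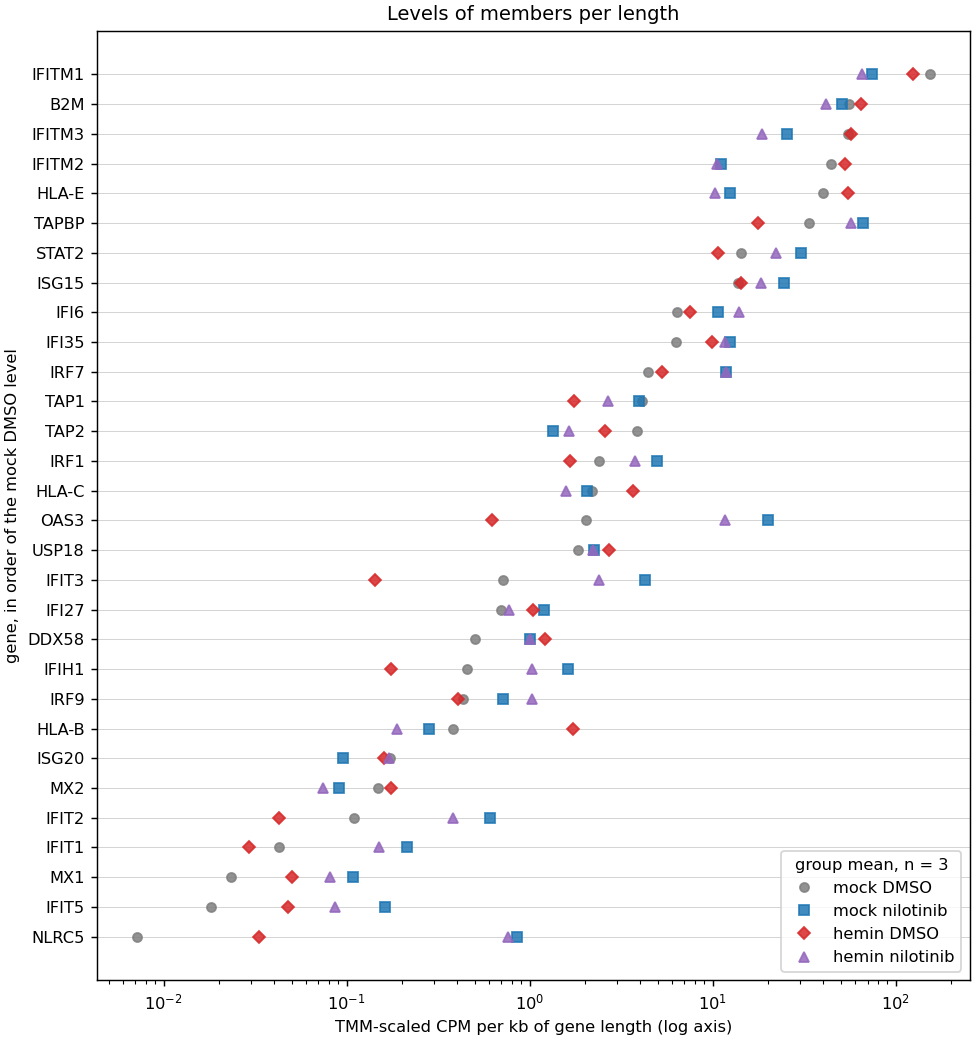
Mean level of each of the 30 members tested in the 4 groups, in TMM-scaled CPM per kilobase of gene length on a log axis, with 1 symbol for each group of 3 libraries and the genes in the order of their mock DMSO level. OAS3 ran from 0.621 in hemin DMSO to 19.9 in mock nilotinib, and NLRC5 from 0.00716 in mock DMSO to 0.853 in mock nilotinib.

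Mock nilotinib was compared with mock DMSO to see what nilotinib alone does to these genes. Without hemin, nilotinib raised the RNA sensors, 3 of the 4 transcription factors, all 4 IFIT genes and OAS3, while it lowered the 3 IFITM genes, HLA-E and TAP2. NLRC5 rose the most of the members tested, 117-fold, with a log2 fold change of 6.87 (SE 0.54, edgeR adjusted p = 5.47e-08). IFITM2 had the largest fall of the members tested and fell by 2 (SE 0.26, edgeR adjusted p = 1.48e-05) on the log2 scale. Of the 30 members tested 17 were higher and 6 lower, and 7 were not called. Over all 20821 genes 42.5% were called, 20.7% higher and 21.8% lower, and the balance depended on the scaling: 48.6% of the calls were higher, or 57% with upper-quartile factors. The median log2 fold change was 0.82 over the members and 0.00 over all genes tested. Among the 22 antiviral and signalling members 15 rose and 4 fell (median 0.98), and among the 8 of antigen presentation 2 rose and 2 fell (median -0.1). A gene can pass the filter on the counts of a single group. With only genes at 10 counts or more in each library, 18 members were called in place of 23. NLRC5, IFIT2, MX1, IFIT1 and IFIT5, called higher above, were then not tested. The list as a whole was not tested.

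With hemin present, hemin nilotinib was compared with hemin DMSO to see what nilotinib does in cells given hemin. OAS3, IFIT3, IFIT2, NLRC5 and TAPBP were higher with nilotinib, and HLA-B, HLA-E, HLA-C, B2M and the IFITM genes were lower. NLRC5 rose 22.8-fold, a log2 fold change of 4.51 (SE 0.46, edgeR adjusted p = 4.05e-07), and OAS3 18.8-fold, 4.23 (SE 0.22, edgeR adjusted p = 2.47e-10). HLA-B, with the largest fall of the members tested, fell by 3.21 (SE 0.38, edgeR adjusted p = 2.40e-06). Of the 30 members tested 14 were higher, 9 lower and 7 not called, beside 64.2% of all genes called, 32.4% higher and 31.8% lower. The members' median log2 fold change was 0.50, and that of all genes 0.02. The median depended on which members passed the filter: it was 0.275 when every gene with any count was tested and 0.095 over genes at 10 counts or more in each library. In the latter setting 20 members were called in place of 23, as NLRC5, IFIT2 and IFIT1 were not tested. Of the 22 antiviral and signalling members 11 rose and 4 fell (median 0.77), and of the 8 antigen presentation members 3 rose and 5 fell (median -0.64). NLRC5 in this comparison was 5.24 (edgeR adjusted p = 1.12e-06) without hemin DMSO replicate 2.

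Across this pair of comparisons, 12 of the 30 members tested rose in both and 5 fell in both, beside 15.5% and 14.8% of all genes. Another 5 rose only without hemin (4.32% of all genes), 2 rose only with hemin (15.6%), 4 fell only with hemin (16.1%), 1 fell only without hemin (5.67%), and 1 was called in neither (25.8%). The nilotinib comparisons have no library in common, but each shares its libraries with the comparisons of hemin with mock. Whether the effects differ was tested by the interaction, given after the roles.

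**Figure D2:**
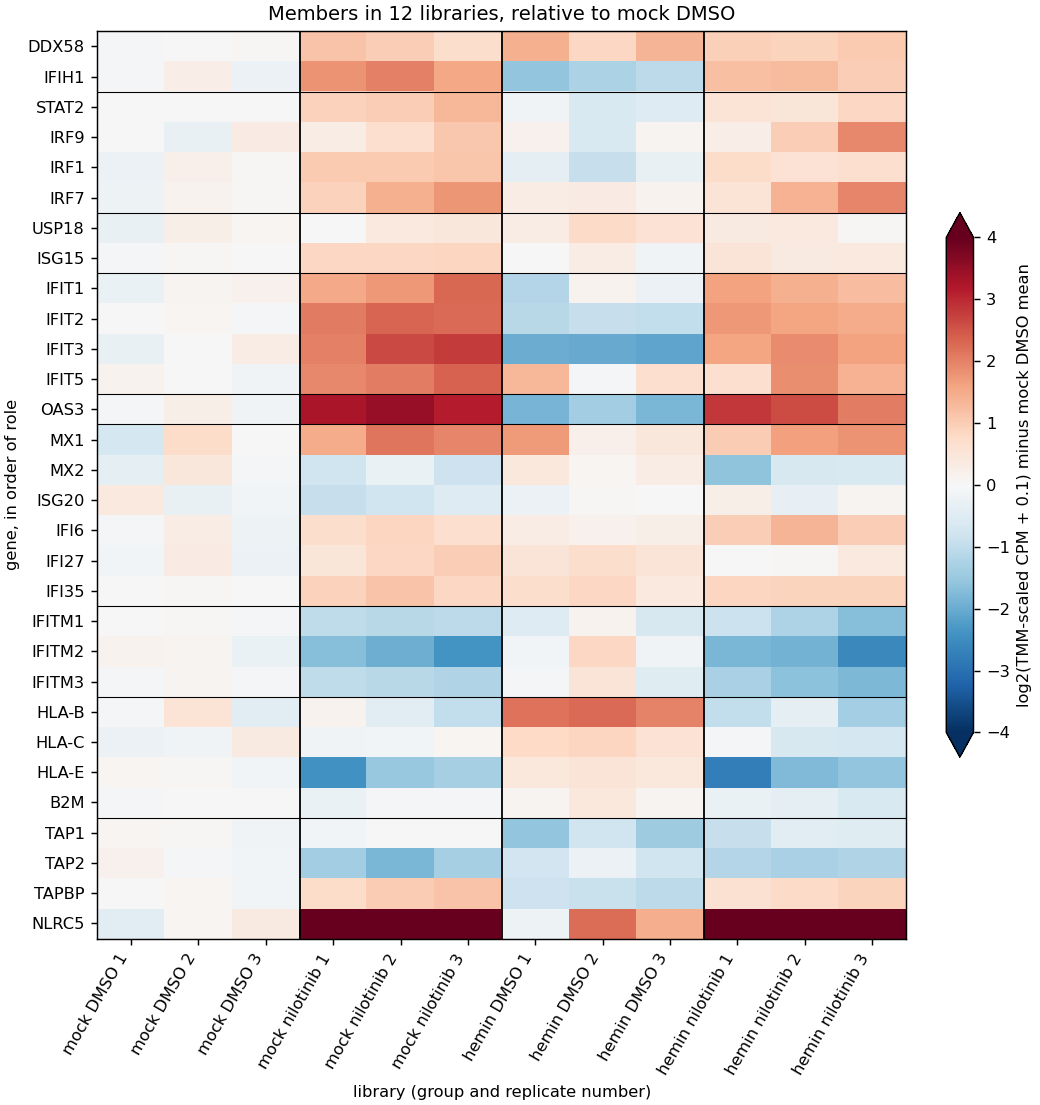
Level of the 30 members tested in each of the 12 libraries, as log2(CPM + 0.1) minus the mean of mock DMSO, with genes in the order of their roles and colors limited at 4 on either side. The 6 nilotinib libraries are red for the IFIT genes, OAS3 and NLRC5 and blue for the IFITM genes and HLA-E, and HLA-B is a strong red only in the 3 hemin DMSO libraries.

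DDX58 and IFIH1 encode RIG-I and MDA5, which sense viral RNA in the cytosol. DDX58 stood at 2.12, 2.19 and 2.25 CPM in mock DMSO, 4.996, 4.41 and 3.66 in mock nilotinib, 6.097, 3.96 and 5.73 in hemin DMSO and 4.31, 4.17 and 4.58 in hemin nilotinib. Its mock DMSO libraries were below the other 9, while the hemin DMSO and hemin nilotinib libraries overlapped. DDX58 rose with nilotinib by 0.99 (SE 0.22, edgeR adjusted p = 0.00184) without hemin and had a log2 fold change of -0.27 (edgeR adjusted p = 0.281) with hemin, which was not past the threshold. IFIH1 stood at 2.23, 2.79 and 1.96 CPM in mock DMSO, 8.27, 9.66 and 6.95 in mock nilotinib, 0.705, 0.893 and 1.06 in hemin DMSO and 5.38, 5.71 and 4.63 in hemin nilotinib. None of its 4 groups overlapped another, and the nilotinib groups were highest. IFIH1 rose by 1.83 (SE 0.23, edgeR adjusted p = 9.33e-06) without hemin and by 2.55 (SE 0.25, edgeR adjusted p = 2.83e-07) with it.

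STAT2 and IRF9 form part of the complex that carries the type I interferon signal to DNA. STAT2 was at 86.4, 86.8 and 87.7 CPM in mock DMSO, 165, 173 and 217 in mock nilotinib, 78.6, 56.99 and 61.1 in hemin DMSO and 128, 123 and 156 in hemin nilotinib. The 4 groups were apart from each other, mock nilotinib highest and hemin DMSO lowest. With nilotinib STAT2 rose by 1.09 (SE 0.15, edgeR adjusted p = 2.26e-05) without hemin and by 1.05 (SE 0.15, edgeR adjusted p = 1.52e-05) with hemin. IRF9 was far scarcer, at 1.58, 1.29 and 2.06 CPM in mock DMSO, 2.004, 2.62 and 3.49 in mock nilotinib, 1.84, 1.02 and 1.75 in hemin DMSO and 1.98, 3.29 and 6.404 in hemin nilotinib. Mock nilotinib overlapped mock DMSO, and hemin nilotinib lay above hemin DMSO with replicate 3 the highest of all. IRF9 had 0.71 (edgeR adjusted p = 0.144) without hemin, not past the threshold though past it in a fit of the 2 groups compared (0.714, edgeR adjusted p = 0.0373), and rose by 1.34 (SE 0.39, edgeR adjusted p = 0.00632) with hemin, a call that ended at 0.79 (edgeR adjusted p = 0.0567) without hemin nilotinib replicate 3.

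IRF1 and IRF7 are transcription factors that interferon γ and type I interferons induce, IRF7 being the factor that drives the interferon α genes. IRF1 counted 15.6, 21.1 and 19.1 CPM in mock DMSO, 38.2, 38.5 and 39.6 in mock nilotinib, 14.3, 9.67 and 14.9 in hemin DMSO and 30.4, 27.8 and 29.7 in hemin nilotinib. As with STAT2, the groups did not overlap and mock nilotinib was the highest. Nilotinib raised IRF1 by 1.06 (SE 0.16, edgeR adjusted p = 7.81e-05) without hemin and by 1.17 (SE 0.17, edgeR adjusted p = 1.48e-05) with hemin. IRF7 counted 10.2, 12.9 and 11.96 CPM in mock DMSO, 22.1, 31.5 and 39.5 in mock nilotinib, 14.3, 14.6 and 12.9 in hemin DMSO and 17.02, 30.7 and 44.9 in hemin nilotinib. All nilotinib libraries were above all DMSO libraries, and hemin nilotinib had the widest spread. Its rise was 1.41 (SE 0.27, edgeR adjusted p = 5.28e-04) without hemin and 1.15 (SE 0.27, edgeR adjusted p = 0.00145) with hemin. Of the 4 transcription factors, 3 rose without hemin (median 1.07) and 4 with hemin (median 1.16), beside 20.7% and 32.4% of all genes.

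USP18 removes ISG15 from proteins and restrains the interferon receptor. Its libraries gave 3.15, 4.53 and 4.06 CPM in mock DMSO, 3.83, 5.08 and 5.36 in mock nilotinib, 4.75, 6.67 and 5.86 in hemin DMSO and 5.03, 5.05 and 4.04 in hemin nilotinib. Nilotinib and DMSO libraries overlapped both with and without hemin, and neither log2 fold change, 0.28 (edgeR adjusted p = 0.33) without and -0.29 (edgeR adjusted p = 0.265) with hemin, passed the threshold. ISG15, a ubiquitin-like protein attached to other proteins in the interferon response, gave 12.6, 13.3 and 12.8 CPM in mock DMSO, 23.1, 22.8 and 23.5 in mock nilotinib, 12.6, 15.7 and 11.8 in hemin DMSO and 18.3, 16.4 and 16.9 in hemin nilotinib. The nilotinib libraries lay above the DMSO libraries, by a wider gap without hemin. ISG15 rose by 0.85 (SE 0.14, edgeR adjusted p = 1.84e-04) without hemin and by 0.37 (SE 0.14, edgeR adjusted p = 0.0344) with hemin. The rise with hemin was not past the threshold at 0.33 without hemin DMSO replicate 1, 0.28 without hemin DMSO replicate 3, 0.34 without hemin nilotinib replicate 1, 0.40 without hemin nilotinib replicate 2, 0.369 without mock nilotinib replicate 2 and 0.37 without mock nilotinib replicate 3, nor at 0.323 with RLE factors, 0.409 with every gene with any count and 0.391 in a fit of the 2 groups compared.

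IFIT proteins bind viral RNA and block its translation. IFIT3 (ENSG00000119917; chr10:89327894-89340971) was at 1.51, 1.86 and 2.31 CPM in mock DMSO, 7.86, 12.2 and 13.4 in mock nilotinib, 0.398, 0.383 and 0.355 in hemin DMSO and 5.75, 7.14 and 5.96 in hemin nilotinib. The 4 groups were fully apart, from mock nilotinib down to hemin DMSO. IFIT3 rose by 2.56 (SE 0.25, edgeR adjusted p = 5.23e-07) without hemin and by 4.04 (SE 0.29, edgeR adjusted p = 9.92e-09) with hemin. IFIT2 was at 0.4497, 0.477 and 0.423 CPM in mock DMSO, 2.23, 2.65 and 2.54 in mock nilotinib, 0.153, 0.191 and 0.177 in hemin DMSO and 1.73, 1.54 and 1.43 in hemin nilotinib. The order of its groups was that of IFIT3, again without overlap. Its rise came to 2.45 (SE 0.28, edgeR adjusted p = 3.76e-06) without hemin and 3.14 (SE 0.33, edgeR adjusted p = 5.78e-07) with hemin, the latter against 18 counts in hemin DMSO.

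IFIT1 and IFIT5 had group means under 1 CPM throughout. Group means of IFIT1 were 0.196, 0.989, 0.135 and 0.692 CPM in mock DMSO, with nilotinib, with hemin and with both, and those of IFIT5 rested on 11, 70, 20 and 40 counts in the same order. IFIT1 rose by 2.32 (SE 0.47, edgeR adjusted p = 7.72e-04) without hemin and by 2.32 (SE 0.52, edgeR adjusted p = 9.78e-04) with hemin. IFIT5 rose by 3.09 (SE 0.58, edgeR adjusted p = 4.33e-04) without hemin, and with hemin its log2 fold change of 0.84 (edgeR adjusted p = 0.194) did not pass, with 0.444 without hemin nilotinib replicate 2 and 1.464 without hemin DMSO replicate 1. All 4 IFIT genes thus rose without hemin (median 2.51) and 3 with hemin (median 2.73), beside 20.7% and 32.4% of all genes. A gene near 0 in DMSO can pass the filter on its nilotinib libraries, and then a rise is almost the only call open to it. IFIT1, IFIT2 and IFIT5 were not tested when only genes at 10 counts or more in each library were kept. The count for the family is therefore no support for a rise of the family.

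OAS enzymes make short oligoadenylates that switch on RNase L when double-stranded RNA is present. OAS3 (ENSG00000111331; chr12:112938352-112973249) was the only member of its family with enough counts, at 15.6, 19.4 and 15.1 CPM in mock DMSO, 159.6, 186 and 147 in mock nilotinib, 4.504, 6.22 and 4.64 in hemin DMSO and 119.6, 101 and 68.2 in hemin nilotinib. The groups did not overlap, and the lowest nilotinib library lay well above the highest DMSO library. OAS3 rose 9.84-fold without hemin, a log2 fold change of 3.30 (SE 0.20, edgeR adjusted p = 4.16e-09), and by 4.23 (SE 0.22, edgeR adjusted p = 2.47e-10) with hemin. Its relatives OAS1, OAS2 and OASL did not pass the filter. When every gene with any count was tested, OASL passed the threshold for nilotinib with hemin at -5.05 (edgeR adjusted p = 0.0265), on 11 counts in hemin DMSO against 0 in hemin nilotinib, and OAS2 for hemin without nilotinib at 4.64 (edgeR adjusted p = 0.0283), on 0 counts in mock DMSO against 8 in hemin DMSO.

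MX1 and MX2 are dynamin-like GTPases that trap viral particles. MX1 stayed under 1 CPM in each group mean, on 28, 100, 44 and 81 counts in mock DMSO, with nilotinib, with hemin and with both. It rose by 2.24 (SE 0.56, edgeR adjusted p = 0.00399) without hemin, and by 2.90 (edgeR adjusted p = 0.00244) without mock DMSO replicate 2, while with hemin its log2 fold change was 0.70 (edgeR adjusted p = 0.264), or 1.46 (edgeR adjusted p = 0.0404) without hemin DMSO replicate 1 and 0.405 without hemin DMSO replicate 2. MX2 had 1.39, 2.58 and 1.81 CPM in mock DMSO, 1.04, 1.52 and 1.01 in mock nilotinib, 2.51, 1.98 and 2.31 in hemin DMSO and 0.546, 1.15 and 1.19 in hemin nilotinib. Its hemin nilotinib libraries lay below hemin DMSO without overlap, whereas the mock groups overlapped each other, as did the nilotinib groups. MX2 fell by 1.22 (SE 0.34, edgeR adjusted p = 0.00502) with hemin and had -0.69 (edgeR adjusted p = 0.109) without it.

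ISG20, an exonuclease that degrades RNA, had 1.67, 1.002 and 1.13 CPM in mock DMSO, 0.609, 0.671 and 0.836 in mock nilotinib, 1.04, 1.28 and 1.22 in hemin DMSO and 1.47, 0.961 and 1.36 in hemin nilotinib. Mock nilotinib was below mock DMSO, and the hemin groups overlapped. It fell by 0.85 (SE 0.32, edgeR adjusted p = 0.0404) without hemin and had 0.10 (edgeR adjusted p = 0.797) with hemin. The fall was not past the threshold at -0.65 without mock DMSO replicate 1, -0.95 without mock DMSO replicate 3, -0.76 without mock nilotinib replicate 1 and -0.85 without mock nilotinib replicate 2, nor at -0.746 with upper-quartile factors and -0.886 with every gene with any count. With hemin it was -0.01 without hemin nilotinib replicate 1.

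IFI6 and IFI27 are small membrane proteins of the same family, and IFI35 is a leucine zipper protein that pairs with NMI. IFI6 had 5.14, 6.68 and 4.77 CPM in mock DMSO, 8.95, 9.98 and 8.74 in mock nilotinib, 6.802, 6.16 and 6.42 in hemin DMSO and 10.9, 14.2 and 10.9 in hemin nilotinib. The nilotinib libraries were above the DMSO libraries in both settings. IFI6 rose by 0.74 (SE 0.19, edgeR adjusted p = 0.0042) without hemin and by 0.89 (SE 0.19, edgeR adjusted p = 5.48e-04) with hemin. IFI27 had 2.66, 3.62 and 2.403 CPM in mock DMSO, 4.03, 5.13 and 5.79 in mock nilotinib, 4.11, 4.69 and 4.13 in hemin DMSO and 2.88, 2.94 and 3.74 in hemin nilotinib. Nilotinib libraries were above DMSO libraries without hemin and below them with hemin. IFI27 rose by 0.79 (SE 0.23, edgeR adjusted p = 0.0119) without hemin, a call that ended at 0.68 without mock DMSO replicate 1, 0.64 without mock DMSO replicate 3 and 0.63 without mock nilotinib replicate 3, and its -0.43 (edgeR adjusted p = 0.113) with hemin was not past the threshold.

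IFI35 had 12.2, 12.7 and 12.3 CPM in mock DMSO, 23.7, 27.5 and 22.1 in mock nilotinib, 20.2, 22.1 and 16.5 in hemin DMSO and 22.9, 23.1 and 23.3 in hemin nilotinib. The mock DMSO libraries were the lowest and close together, and the other groups lay at similar levels. IFI35 rose by 0.98 (SE 0.15, edgeR adjusted p = 5.40e-05) without hemin and had 0.24 (edgeR adjusted p = 0.163) with hemin. Of the 6 genes tested in this role 4 rose and 1 fell without hemin (median 0.76), and 1 rose and 1 fell with hemin (median 0.17). MX1, among those that rose, was not tested when only genes at 10 counts or more in each library were kept. Over all genes 20.7% rose and 21.8% fell without hemin, and 32.4% rose and 31.8% fell with it.

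IFITM proteins sit in membranes and hinder the entry of enveloped viruses. IFITM2 (ENSG00000185201; chr11:307631-315272) was at 75.1, 73.2 and 57.1 CPM in mock DMSO, 20.97, 17.4 and 12.97 in mock nilotinib, 62.9, 120.4 and 61.1 in hemin DMSO and 18.97, 18.4 and 11.3 in hemin nilotinib. Every nilotinib library was below every DMSO library, and hemin DMSO replicate 2 was the highest. IFITM2 fell by 2 (SE 0.26, edgeR adjusted p = 1.48e-05) without hemin and decreased by 2.33 (SE 0.27, edgeR adjusted p = 1.42e-06) with hemin. IFITM3 was at 70.4, 79.8 and 71.2 CPM in mock DMSO, 36.4, 34.3 and 32.1 in mock nilotinib, 70.8, 106 and 52.6 in hemin DMSO and 30.1, 23.8 and 21.3 in hemin nilotinib. Here too the nilotinib libraries were all lower, hemin nilotinib lowest. IFITM3 fell by 1.11 (SE 0.20, edgeR adjusted p = 2.96e-04) without hemin and decreased by 1.61 (SE 0.20, edgeR adjusted p = 3.93e-06) with hemin.

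IFITM1, the most abundant member per kilobase, was at 164, 173 and 161 CPM in mock DMSO, 82.2, 76.3 and 80.4 in mock nilotinib, 115, 181 and 107 in hemin DMSO and 91.7, 70.03 and 50.98 in hemin nilotinib. The nilotinib libraries lay under the DMSO libraries, with no overlap. IFITM1 fell by 1.06 (SE 0.20, edgeR adjusted p = 4.85e-04) without hemin and decreased by 0.92 (SE 0.20, edgeR adjusted p = 8.03e-04) with hemin. The 3 IFITM genes thus fell in both comparisons, with medians of -1.11 without and -1.61 with hemin, under each scaling and with each library left out in turn, although IFITM1 and IFITM2 share exon bases. Over all genes 21.8% fell without and 31.8% with hemin.

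HLA-B and HLA-C are classical MHC class I heavy chains, which show peptides to T cells. HLA-B (ENSG00000234745; chr6:31269491-31357188) was at 1.04, 1.67 and 0.788 CPM in mock DMSO, 1.24, 0.817 and 0.519 in mock nilotinib, 5.42, 5.71 and 4.69 in hemin DMSO and 0.517, 0.824 and 0.374 in hemin nilotinib. The hemin DMSO libraries stood above the other 9, which overlapped each other. With nilotinib HLA-B fell by 3.21 (SE 0.38, edgeR adjusted p = 2.40e-06) under hemin, and without hemin the log2 fold change was -0.42 (edgeR adjusted p = 0.381). The latter was -0.794 without mock nilotinib replicate 1 and -0.09 without mock DMSO replicate 2. HLA-C was at 4.59, 4.94 and 6.92 CPM in mock DMSO, 4.84, 4.99 and 5.68 in mock nilotinib, 9.498, 9.96 and 8.14 in hemin DMSO and 5.14, 3.43 and 3.296 in hemin nilotinib. Again hemin DMSO was the highest group and the others overlapped. HLA-C fell by 1.22 (SE 0.23, edgeR adjusted p = 2.05e-04) with hemin and had -0.08 (edgeR adjusted p = 0.788) without it, a value whose sign depended on the scaling (0.029 with upper-quartile factors) and which was 0.095 without mock DMSO replicate 3.

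HLA-E presents leader peptides of other class I chains to natural killer cell receptors. HLA-E (ENSG00000204592; chr6:30489467-30494205) was at 124, 123 and 109.9 CPM in mock DMSO, 22.2, 41.3 and 47.4 in mock nilotinib, 160.3, 171 and 159 in hemin DMSO and 17.4, 34.9 and 39.6 in hemin nilotinib. All nilotinib libraries were well below all DMSO libraries, and hemin DMSO was the highest group. HLA-E fell by 1.69 (SE 0.26, edgeR adjusted p = 7.99e-05) without hemin and decreased by 2.41 (SE 0.27, edgeR adjusted p = 1.13e-06) with hemin. B2M, the light chain that all class I molecules share, was at 329, 339 and 343 CPM in mock DMSO, 283, 325 and 321 in mock nilotinib, 361, 452 and 361 in hemin DMSO and 282, 259.5 and 219 in hemin nilotinib. Hemin nilotinib was the lowest group and hemin DMSO the highest. B2M fell by 0.63 (SE 0.14, edgeR adjusted p = 8.20e-04) with hemin and had -0.12 (edgeR adjusted p = 0.495) without it. Of this role 1 of 4 genes fell without hemin (median -0.27) and 4 of 4 with hemin (median -1.82), beside 21.8% and 31.8% of all genes.

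TAP1 and TAP2 form the peptide transporter. TAP1 had 20.8, 20.5 and 17.9 CPM in mock DMSO, 18.3, 19.5 and 19.5 in mock nilotinib, 6.56, 11.2 and 7.36 in hemin DMSO and 10.4, 14.2 and 14.02 in hemin nilotinib. The mock groups overlapped, and the hemin groups were lower and overlapped each other. Its log2 fold change was -0.04 (edgeR adjusted p = 0.87) without hemin, with the opposite sign under upper-quartile factors (0.063), and it rose by 0.63 (SE 0.19, edgeR adjusted p = 0.0101) with hemin, a call that ended at 0.48 without hemin DMSO replicate 1 and 0.53 without hemin DMSO replicate 3. TAP2 had 27.3, 23.9 and 22.5 CPM in mock DMSO, 9.18, 6.797 and 9.69 in mock nilotinib, 14.5, 20.7 and 14.1 in hemin DMSO and 10.8, 9.83 and 10.6 in hemin nilotinib. The nilotinib libraries were below the DMSO libraries, and mock DMSO was the highest. TAP2 fell by 1.52 (SE 0.19, edgeR adjusted p = 7.03e-06) without hemin and decreased by 0.66 (SE 0.18, edgeR adjusted p = 0.00516) with hemin. The transporter's subunits thus had opposite calls with hemin present.

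Tapasin, the product of TAPBP, holds class I molecules beside the transporter. TAPBP (ENSG00000231925; chr6:33299694-33314387) had 171, 179 and 158 CPM in mock DMSO, 284, 341 and 373 in mock nilotinib, 94.8, 92.3 and 81.3 in hemin DMSO and 261, 289.8 and 314 in hemin nilotinib. The nilotinib groups were above mock DMSO, and hemin DMSO was the lowest. TAPBP rose by 0.97 (SE 0.13, edgeR adjusted p = 2.37e-05) without hemin and by 1.69 (SE 0.14, edgeR adjusted p = 3.24e-08) with hemin.

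NLRC5, the transactivator of class I genes, went from near absence to a clear signal. NLRC5 (ENSG00000140853; chr16:56989485-57083531) had 0.03598, 0.0954 and 0.135 CPM in mock DMSO, 8.12, 12.8 and 10.8 in mock nilotinib, 0.0613, 0.766 and 0.406 in hemin DMSO and 10.8, 10.3 and 6.99 in hemin nilotinib. Its mock DMSO libraries rested on 2, 4 and 7 counts and the mock nilotinib libraries on 320, 438 and 374. Hemin DMSO had 2, 24 and 16 counts and overlapped mock DMSO, and hemin nilotinib had 376, 376 and 299. Every nilotinib library exceeded every DMSO library. The rises were 117-fold without hemin, 6.87 (SE 0.54, edgeR adjusted p = 5.47e-08), and 22.8-fold with hemin, 4.51 (SE 0.46, edgeR adjusted p = 4.05e-07), the latter 5.24 without hemin DMSO replicate 2. A base of a few counts makes the size of these folds imprecise. HLA-B, HLA-C, HLA-E and B2M were each lower or not called in the comparisons where NLRC5 was higher with nilotinib. With hemin alone NLRC5, HLA-B and HLA-C all rose. Those calls of NLRC5 and HLA-C were lost when single libraries were left out, as given below for hemin alone. Whether the class I genes follow NLRC5 was not tested. Among the 4 genes of peptide loading with NLRC5, 2 rose and 1 fell without hemin (median 0.46) and 3 rose and 1 fell with hemin (median 1.16). NLRC5 was not tested when only genes at 10 counts or more in each library were kept. Over all genes 20.7% rose and 21.8% fell without hemin, and 32.4% rose and 31.8% fell with it.

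**Figure D3:**
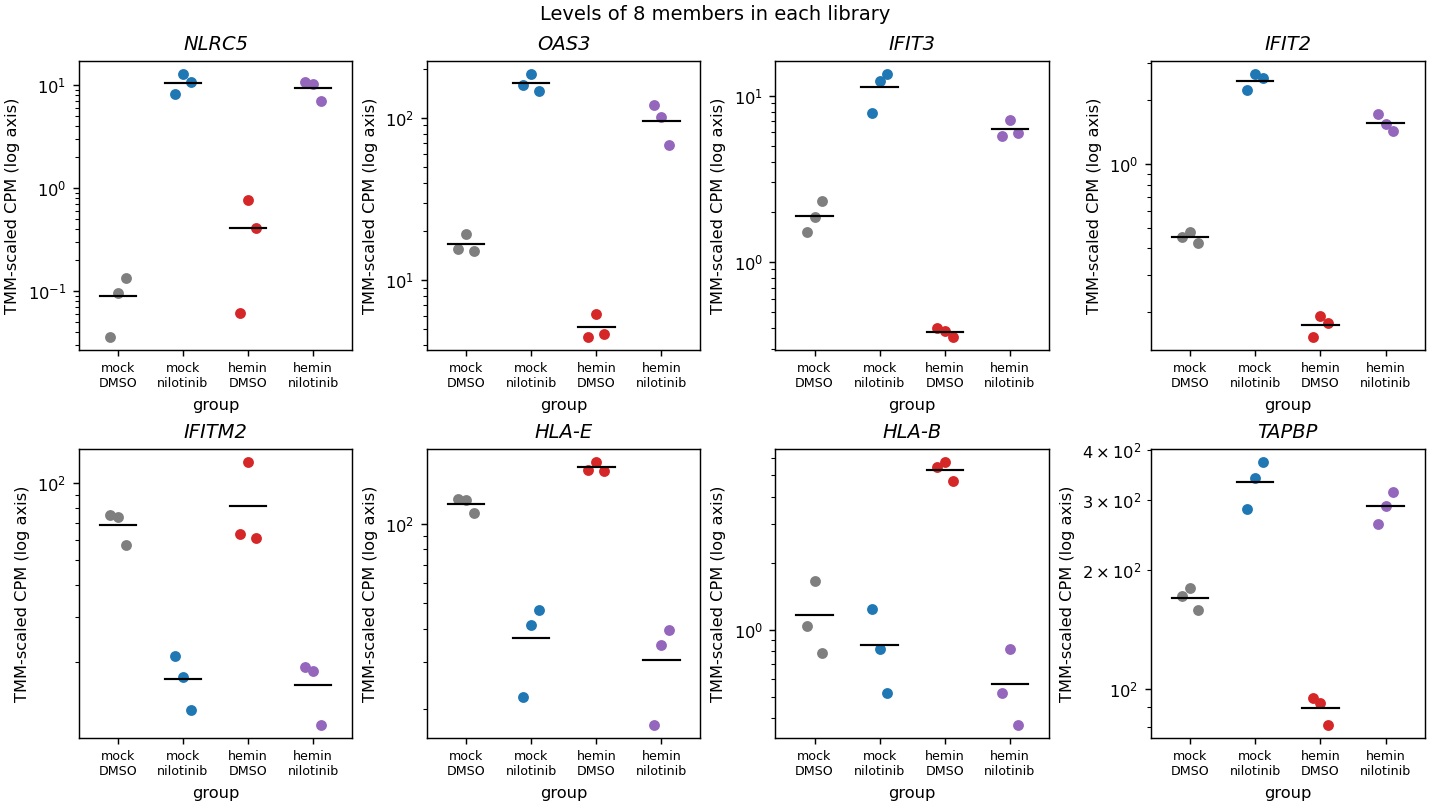
Level of 8 members in TMM-scaled CPM on a log axis, with a point for each library and a line for the mean of its group of 3. NLRC5, OAS3, IFIT3 and IFIT2 are high in both nilotinib groups, IFITM2 and HLA-E are low in both, HLA-B is high in hemin DMSO (5.42, 5.71 and 4.69 CPM), and TAPBP is lowest there.

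**Figure D4:**
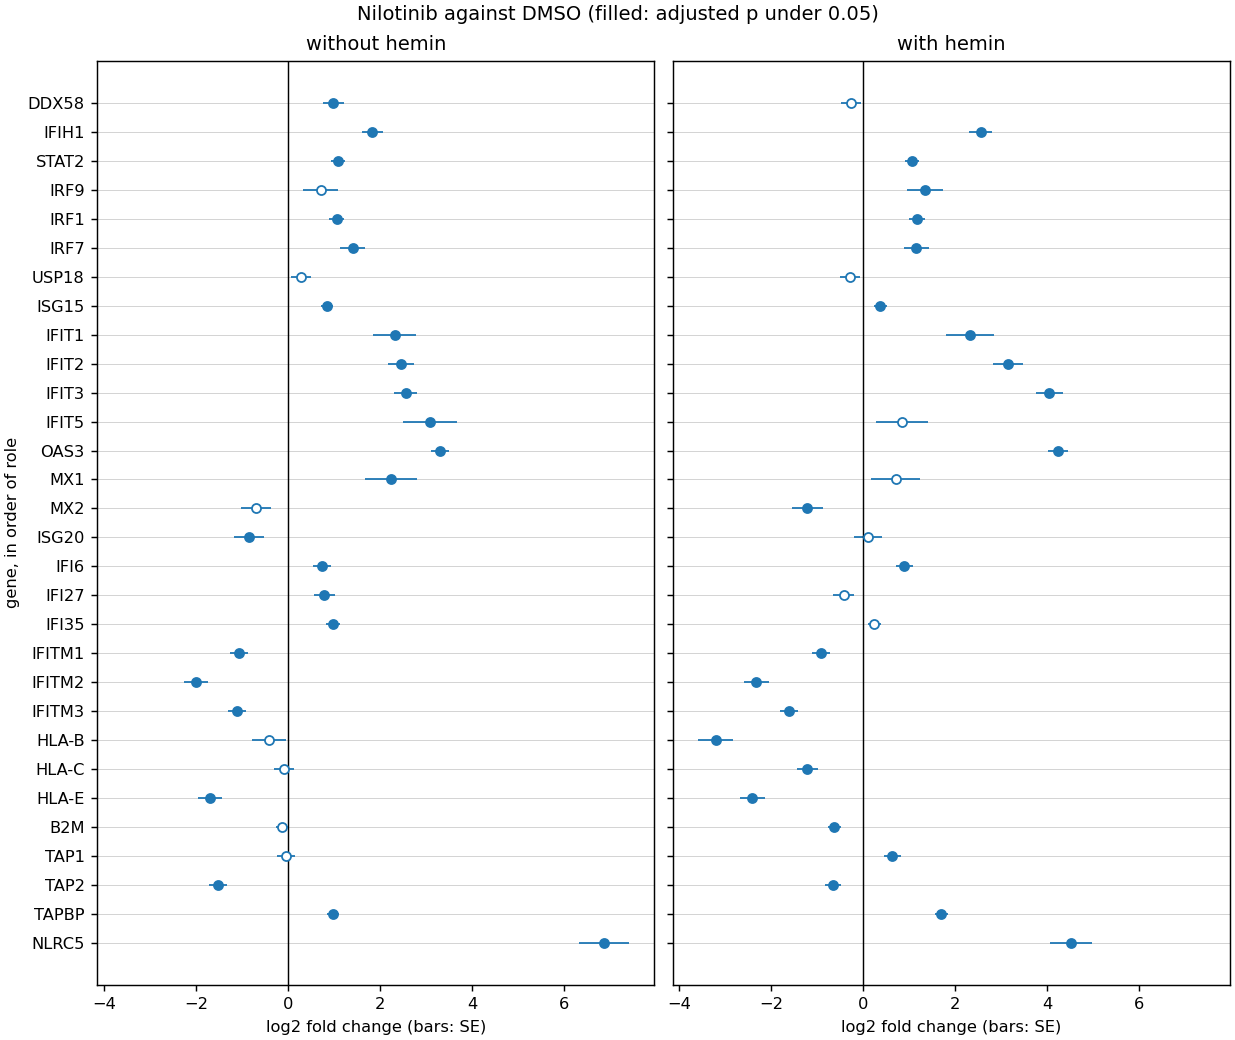
Log2 fold change of nilotinib against DMSO for the 30 members tested, without hemin on the left and with hemin on the right, with bars for the SE and filled points for an adjusted p under 0.05. NLRC5 lies farthest to the right in both panels (6.87 and 4.51), and HLA-B moves from -0.42 without hemin to -3.21 with hemin.

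The interaction, the log2 fold change of nilotinib with hemin minus that without hemin, tested whether the effects differ. Here too hemin, time of culture and length of exposure to nilotinib cannot be told apart. OAS3, IFIT3, TAPBP and TAP2 had positive differences, so the nilotinib effect was higher in the groups with hemin. HLA-B, HLA-C, NLRC5, DDX58, IFI27, IFI35 and IFIT5 had negative ones. Of the 30 members tested 4 were called higher and 7 lower, beside 30.1% of all genes, 17.1% higher and 13% lower, and the medians were -0.29 over the members and 0.06 over all genes. The 7 came to 3 without mock DMSO replicate 1 and to 4 without mock nilotinib replicate 2.

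IFIT3 had an interaction of 1.48 (SE 0.37, edgeR adjusted p = 0.00749) and OAS3 of 0.94 (SE 0.27, edgeR adjusted p = 0.016). Both had their lowest libraries in hemin DMSO. For TAPBP it was 0.72 (SE 0.19, edgeR adjusted p = 0.00927). TAP2 had 0.86 (SE 0.26, edgeR adjusted p = 0.0194), which was not past the threshold at 0.75 without mock nilotinib replicate 2 and 0.75 without hemin DMSO replicate 3. In TAP2 the fall with nilotinib was smaller under hemin.

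Among MHC class I chains the interaction was -2.79 (SE 0.53, edgeR adjusted p = 0.00117) for HLA-B and -1.13 (SE 0.32, edgeR adjusted p = 0.0136) for HLA-C, the latter -0.94 (edgeR adjusted p = 0.0603) without mock DMSO replicate 1. For NLRC5 it was -2.36 (SE 0.74, edgeR adjusted p = 0.0246). That call ended at -1.87 without mock DMSO replicate 1, -2.16 without mock nilotinib replicate 2 and -1.64 without hemin DMSO replicate 2. HLA-E had -0.73 (edgeR adjusted p = 0.143), not past the threshold, though past it at -0.97 without mock nilotinib replicate 1 and at -0.659 (edgeR adjusted p = 0.023) with every gene with any count. It was -0.43 without hemin nilotinib replicate 1. B2M, with -0.50 (edgeR adjusted p = 0.0583), passed at -0.57 without hemin DMSO replicate 1 and -0.57 without hemin nilotinib replicate 1, and at -0.559 with DESeq2 and with RLE factors, -0.630 with upper-quartile factors and -0.516 over genes at 10 counts or more in each library.

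DDX58 had an interaction of -1.27 (SE 0.31, edgeR adjusted p = 0.00643). For IFI27 it came to -1.22 (SE 0.33, edgeR adjusted p = 0.011). IFI35 had -0.74 (SE 0.20, edgeR adjusted p = 0.0128), not past the threshold at -0.65 without mock DMSO replicate 1 and -0.61 without mock nilotinib replicate 2, nor at -0.670 with every gene with any count. The interaction of IFIT5, -2.25 (SE 0.81, edgeR adjusted p = 0.047), was lost without any of 10 of the 12 libraries: it was -2.36 without mock DMSO replicate 1, -2.22 without mock DMSO replicate 2 and -2.05 without mock DMSO replicate 3, then -2.33 without mock nilotinib replicate 1, -2.26 without mock nilotinib replicate 2 and -2.07 without mock nilotinib replicate 3, and -1.64 without hemin DMSO replicate 1, -2.32 without hemin DMSO replicate 3, -1.92 without hemin nilotinib replicate 1 and -2.21 without hemin nilotinib replicate 3. It was also lost with the replicate number as a block (-2.24, edgeR adjusted p = 0.0608) and with every gene with any count (-2.177, edgeR adjusted p = 0.0749). These genes rose with nilotinib without hemin and were not called with it.

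The other 19 members tested had no call in the interaction. TAP1, with 0.67 (edgeR adjusted p = 0.0723), passed with the replicate block (0.69, edgeR adjusted p = 0.0434), and at 0.93 without hemin DMSO replicate 2 and 0.82 without hemin nilotinib replicate 1, and had 0.513 without hemin DMSO replicate 1. IFITM3 had -0.50 (edgeR adjusted p = 0.19) and passed at -0.72 without hemin DMSO replicate 3, against -0.199 without hemin DMSO replicate 2. ISG15 had -0.48 (edgeR adjusted p = 0.0872) and passed at -0.531 with DESeq2 and -0.598 with upper-quartile factors.

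Hemin DMSO was compared with mock DMSO to see what hemin does without the drug. Hemin lowered IFIT3, OAS3, IFIH1, IFIT2, TAP1 and TAPBP and raised HLA-B, NLRC5, DDX58 and HLA-C. IFIT3, with the largest fall of the members tested, fell by 2.31 (SE 0.29, edgeR adjusted p = 8.22e-06), and HLA-B rose by 2.18 (SE 0.36, edgeR adjusted p = 8.85e-05). Of the 30 members tested 7 were higher, 9 lower and 14 not called. Over all genes 53.6% were called, 25.7% higher and 27.8% lower. Median log2 fold changes were 0.13 over the members and -0.05 over all genes. That of the members was 0.015 without hemin DMSO replicate 2 and 0.244 without hemin DMSO replicate 3. That of all genes turned to 0.073 with upper-quartile factors. The 7 came to 3 without mock DMSO replicate 1 and to 8 without hemin nilotinib replicate 1. Among antiviral and signalling members 4 rose and 6 fell (median 0.05), and among those of antigen presentation 3 rose and 3 fell (median 0.34).

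Of the sensors, DDX58 rose by 1.27 (SE 0.22, edgeR adjusted p = 1.77e-04) and IFIH1 fell by 1.38 (SE 0.25, edgeR adjusted p = 2.36e-04). In the library values the hemin DMSO group was above mock DMSO for DDX58 and below it for IFIH1. STAT2 fell by 0.41 (SE 0.15, edgeR adjusted p = 0.0288) and IRF1 fell by 0.52 (SE 0.17, edgeR adjusted p = 0.0152). The fall of STAT2 was not past the threshold at -0.42 without mock DMSO replicate 2, -0.31 without hemin DMSO replicate 2 and -0.35 without hemin DMSO replicate 3, nor at -0.288 with upper-quartile factors, and that of IRF1 at -0.43 without mock DMSO replicate 2 and -0.34 without hemin DMSO replicate 2, nor at -0.391 with upper-quartile factors. IRF7 had 0.25 (edgeR adjusted p = 0.448) and was not called. USP18 rose by 0.56 (SE 0.22, edgeR adjusted p = 0.0446), but not at 0.35 without mock DMSO replicate 1, 0.66 without mock DMSO replicate 2, 0.54 without mock DMSO replicate 3, 0.45 without hemin DMSO replicate 2, 0.56 without hemin DMSO replicate 3, 0.506 without mock nilotinib replicate 2 or 3, 0.507 without hemin nilotinib replicate 2 and 0.51 without hemin nilotinib replicate 3, nor at 0.488 with every gene with any count.

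In the IFIT and OAS families, OAS3 fell by 1.71 (SE 0.20, edgeR adjusted p = 3.88e-06) and IFIT2 fell by 1.35 (SE 0.35, edgeR adjusted p = 0.00381), and IFIT3 fell furthest. IFIT1 had -0.52 (edgeR adjusted p = 0.458) and was not called. IFIT5 had 1.36 (edgeR adjusted p = 0.0868), with 1.75 (edgeR adjusted p = 0.0309) without hemin DMSO replicate 2 and 0.749 (edgeR adjusted p = 0.41) without hemin DMSO replicate 1. IFI35 rose by 0.66 (SE 0.15, edgeR adjusted p = 0.00125) and IFI27 by 0.58 (SE 0.23, edgeR adjusted p = 0.0463). For IFI27 the rise was lost at 0.45 without mock DMSO replicate 1, 0.41 without mock DMSO replicate 3, 0.62 without hemin DMSO replicate 1, 0.52 without hemin DMSO replicate 2, 0.62 without hemin DMSO replicate 3, 0.559 without mock nilotinib replicate 1, 0.521 without mock nilotinib replicate 2 or 3, 0.522 without hemin nilotinib replicate 2 and 0.526 without hemin nilotinib replicate 3, and at 0.504 with every gene with any count. MX1 had 1.14 (edgeR adjusted p = 0.114), with 1.78 (edgeR adjusted p = 0.0357) without mock DMSO replicate 2 and 0.383 (edgeR adjusted p = 0.634) without hemin DMSO replicate 1.

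None of the IFITM genes was called by edgeR, with log2 fold changes of -0.30 (edgeR adjusted p = 0.209) for IFITM1, 0.25 (edgeR adjusted p = 0.421) for IFITM2 and 0.05 (edgeR adjusted p = 0.856) for IFITM3. Hemin DMSO replicate 2, the highest library of all 3 genes, spread the group: without it IFITM1 had -0.57 (edgeR adjusted p = 0.0176) and IFITM2 turned to -0.14, while without hemin DMSO replicate 3 IFITM1 had -0.149.

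Of the MHC class I chains, HLA-C rose by 0.75 (SE 0.22, edgeR adjusted p = 0.00982), a call that ended at 0.56 without mock DMSO replicate 1 and 0.66 without mock DMSO replicate 2. HLA-E had 0.46 (edgeR adjusted p = 0.143), and passed at 0.496 in a fit of the 2 groups compared, at 0.383 with every gene with any count and at 0.44 without hemin nilotinib replicate 1. B2M had 0.22 (edgeR adjusted p = 0.193), and passed at 0.336 with upper-quartile factors. In peptide loading TAP1 fell by 1.24 (SE 0.19, edgeR adjusted p = 6.50e-05) and TAPBP fell by 0.92 (SE 0.13, edgeR adjusted p = 3.02e-05). TAP2 fell by 0.58 (SE 0.18, edgeR adjusted p = 0.0128), lost at -0.49 without hemin DMSO replicate 1 and -0.47 without hemin DMSO replicate 3. NLRC5 rose by 2.18 (SE 0.64, edgeR adjusted p = 0.00915), lost at 1.71 without mock DMSO replicate 1 and 1.46 without hemin DMSO replicate 2, on the few counts given for these libraries, and it did not pass the filter in a fit of the 2 groups compared.

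Hemin nilotinib was compared with mock nilotinib to see what hemin adds to the drug, a comparison with few calls over all genes. Of the members only OAS3 and IFIT3 passed, both lower with hemin. OAS3 fell by 0.77 (SE 0.18, edgeR adjusted p = 0.0247) and IFIT3 fell by 0.83 (SE 0.23, edgeR adjusted p = 0.0444). Of the 30 members tested edgeR called 2 lower and 0 higher, beside 5.8% of all genes, 3.52% higher and 2.28% lower. At an unadjusted p under 0.05 the numbers were 10 lower and 1 higher, beside 9.56% and 12% of all genes, and DESeq2 called 7 lower and 0 higher, beside 4.29% and 5.19%. The medians were -0.34 over the members and 0.03 over all genes tested. This count of genes depended on single libraries and on the model: 1208 genes were called in all, 782 without mock DMSO replicate 2, 213 without mock nilotinib replicate 2, 234 without mock nilotinib replicate 3, 286 without hemin nilotinib replicate 2 and 2793 without hemin nilotinib replicate 1. OAS3 was not past the threshold at -0.69 without mock nilotinib replicate 2, -0.86 without mock nilotinib replicate 3, -0.82 without hemin nilotinib replicate 2 and -0.58 without hemin nilotinib replicate 3, nor IFIT3 at -0.78 without mock nilotinib replicate 2, -0.70 without mock nilotinib replicate 3, -0.96 without hemin nilotinib replicate 2 and -0.80 without hemin nilotinib replicate 3, so that 0 members were called lower by edgeR without any of these libraries. IFIT3 was also lost, leaving 1 member called lower by edgeR, at -0.82 without mock DMSO replicate 1, -0.832 without mock DMSO replicate 2, -0.829 without mock DMSO replicate 3 and -0.831 without hemin DMSO replicate 3. TAP1 passed at -0.569 (edgeR adjusted p = 0.0391) without hemin DMSO replicate 2. Without hemin nilotinib replicate 1, which stood apart from its group, OAS3 and IFIT3 both passed, with 2 members called lower by edgeR.

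In a fit of the 2 groups compared, neither passed (OAS3 -0.763, IFIT3 -0.821), and 0 members were called by edgeR. The members that DESeq2 added were IFIH1 (-0.675), STAT2 (-0.463), ISG15 (-0.437), IFI27 (-0.656) and TAP1 (-0.579). In edgeR's model ISG20 had 0.84 (edgeR adjusted p = 0.139) and IFI6 0.38 (edgeR adjusted p = 0.242), neither past the threshold. NLRC5, the member with the largest rise under nilotinib, had -0.17 (edgeR adjusted p = 0.823), and HLA-B -0.60 (edgeR adjusted p = 0.408).

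**Figure D5:**
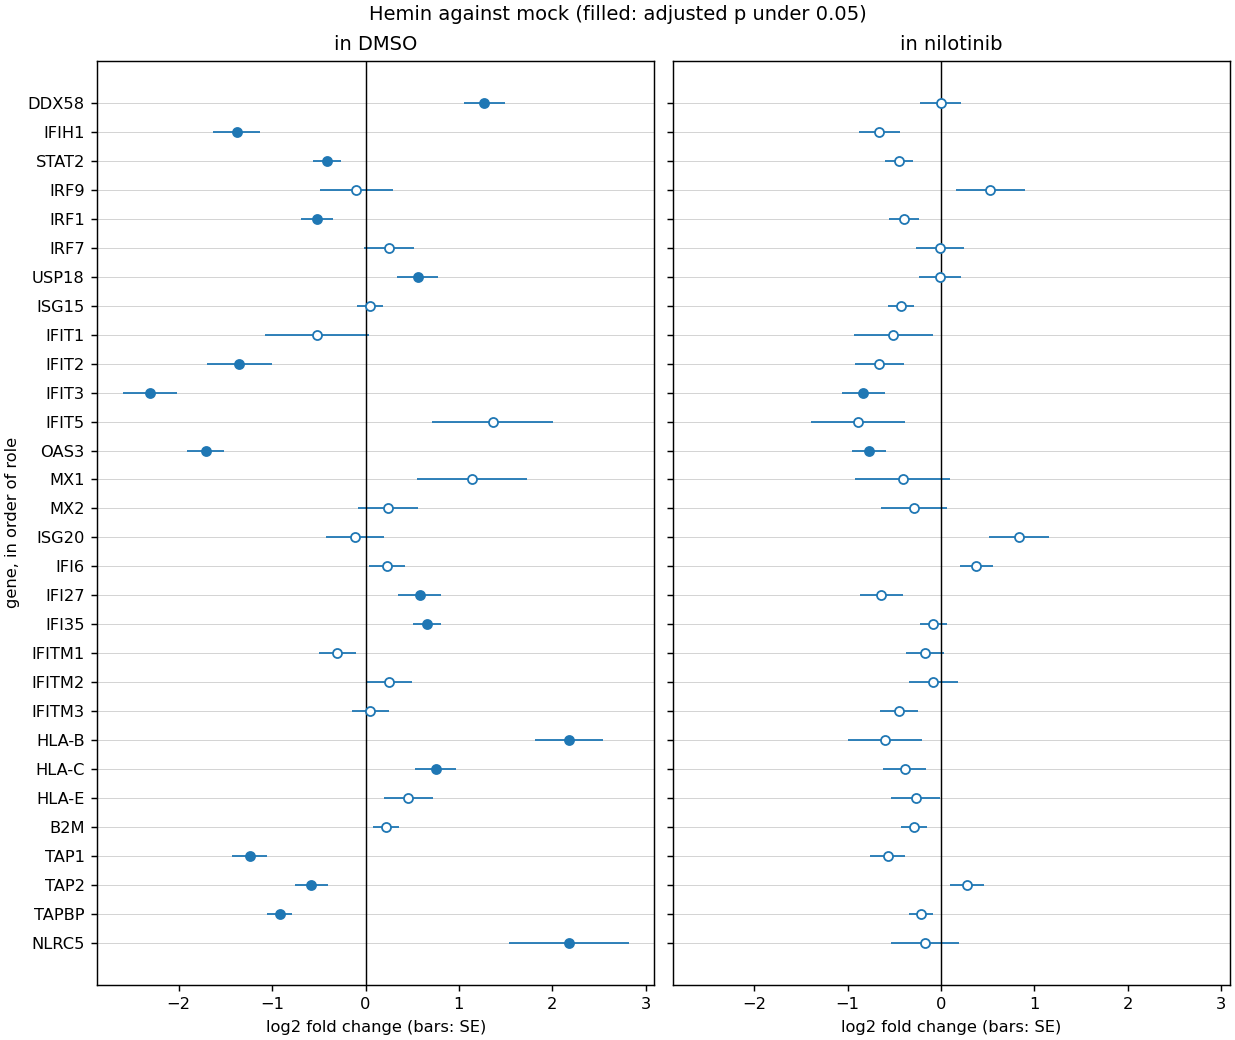
Log2 fold change of hemin against mock for the 30 members tested, in DMSO on the left and in nilotinib on the right, with bars for the SE and filled points for an adjusted p under 0.05. In DMSO, IFIT3 lies at -2.31 and HLA-B at 2.18, whereas in nilotinib only IFIT3 (-0.83) and OAS3 (-0.77) are filled.

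Other genes of the pathway were taken from lists, whose counts of calls stand beside 20.7% higher and 21.8% lower of all genes with nilotinib alone, 32.4% and 31.8% with nilotinib under hemin, and 25.7% and 27.8% with hemin alone. The lists were not tested as wholes. The 21 interferon ligands had too few counts to be tested. Of them, IFNL3 had the most counts over a group, 10 in hemin DMSO, and IFNB1 and every IFNA gene listed had none. K562 is known to have lost the stretch of chromosome 9 that holds the type I interferon genes, and copy number was not measured here. Of 5 genes that flank that cluster, MTAP, KLHL9 and HACD4 had no count in any library, MLLT3 had at most 17 counts over a group, and FOCAD alone was tested, with log2 fold changes of 0.04 with nilotinib alone, -0.84 with nilotinib under hemin (edgeR adjusted p = 0.0259) and 0.76 with hemin alone (edgeR adjusted p = 0.0443).

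Receptors and their kinases went in mixed directions: of 8 tested 2 rose and 1 fell with nilotinib without hemin, 4 rose and 3 fell with nilotinib under hemin, and 1 rose and 2 fell with hemin alone, with medians of 0.06, 0.35 and -0.34. JAK2, a kinase bound to cytokine receptors, fell by 1.88 (SE 0.15, edgeR adjusted p = 9.56e-08) with hemin alone. Among 13 genes of nucleic acid sensing 3 rose and 3 fell, 3 rose and 3 fell, and 3 rose and 5 fell in the same order (medians 0.12, -0.14 and -0.10). TMEM173, which encodes STING, the adaptor of DNA sensing, fell by 2.83 (SE 0.22, edgeR adjusted p = 4.16e-08) with nilotinib alone. MAVS, the mitochondrial adaptor that relays signals of RIG-I and MDA5, fell by 2.24 (SE 0.16, edgeR adjusted p = 3.37e-08) with hemin alone.

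The list of other interferon-stimulated genes, 39 of them tested, had 20 higher and 7 lower with nilotinib alone, 22 higher and 8 lower with nilotinib under hemin, and 7 higher and 17 lower with hemin alone, with medians of 0.51, 0.86 and -0.42. With nilotinib alone, SAMD9L rose by 2.40 (SE 0.29, edgeR adjusted p = 7.32e-06) and TRIM22 by 2.20 (SE 0.34, edgeR adjusted p = 6.75e-05). Under hemin the rises with nilotinib were 3.80 (SE 0.23, edgeR adjusted p = 1.26e-09) for PARP10, 3.50 (SE 0.31, edgeR adjusted p = 7.38e-08) for SAMD9, 2.99 (SE 0.32, edgeR adjusted p = 7.04e-07) for SAMD9L and 2.98 (SE 0.28, edgeR adjusted p = 1.53e-07) for RSAD2, which encodes the antiviral enzyme viperin. LY6E, a membrane-anchored protein, fell by 2.25 (SE 0.22, edgeR adjusted p = 6.38e-07) with nilotinib alone and decreased by 2.59 (SE 0.22, edgeR adjusted p = 6.92e-08) with nilotinib under hemin. LGALS9, which encodes galectin-9, fell by 1.66 (SE 0.41, edgeR adjusted p = 0.00402) and decreased by 2.04 (SE 0.40, edgeR adjusted p = 3.06e-04), the latter at -2.86 without hemin nilotinib replicate 3.

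With hemin alone, ZC3HAV1, which encodes the antiviral zinc finger protein ZAP, rose by 3.07 (SE 0.32, edgeR adjusted p = 1.20e-06) and LGALS9 by 1.92 (SE 0.39, edgeR adjusted p = 6.72e-04). CMPK2, a mitochondrial nucleotide kinase encoded beside RSAD2, fell by 3.03 (SE 0.21, edgeR adjusted p = 2.40e-08) and PARP10 fell by 2.59 (SE 0.22, edgeR adjusted p = 1.53e-07). ISG15 conjugation had 3 genes tested, and 3 rose with nilotinib in each comparison (medians 2.17 and 1.96), while 1 fell with hemin alone (median -0.19). UBA7, the enzyme that activates ISG15, rose with nilotinib alone by 2.17 (SE 0.16, edgeR adjusted p = 2.46e-08) and HERC6 by 2.66 (SE 0.41, edgeR adjusted p = 7.65e-05).

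Of 15 other genes of MHC class I processing 5 rose and 4 fell with nilotinib alone, 6 rose and 5 fell under hemin, and 4 rose and 7 fell with hemin alone (medians 0.15, -0.30 and -0.02). HLA-F, a nonclassical heavy chain, rose with hemin alone by 1.93 (SE 0.42, edgeR adjusted p = 0.00109). MHC class II had 5 genes tested, of which 1 fell with nilotinib alone and 3 under hemin, and 2 rose with hemin alone (medians -0.85, -2.14 and 0.23). CD74, the invariant chain, fell by 2.14 (SE 0.34, edgeR adjusted p = 3.91e-05) with nilotinib under hemin, and HLA-DMA, which loads class II peptides, rose with hemin alone by 1.70 (SE 0.35, edgeR adjusted p = 7.00e-04). Among 8 feedback genes 1 rose and 3 fell, 1 rose and 1 fell, and 2 rose and 4 fell (medians -0.14, 0.04 and -0.39). SOCS3, an inhibitor of JAK kinases, fell by 3.44 (SE 0.23, edgeR adjusted p = 9.37e-09) with nilotinib alone and decreased by 3.89 (SE 0.23, edgeR adjusted p = 1.12e-09) with nilotinib under hemin.

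Within groups, replicate libraries correlated across genes, which are not independent replicates, with Pearson's r from 0.969 to 0.986 in hemin nilotinib, the most varied group, and from 0.99 to 0.992 in mock DMSO. On the first 2 principal components hemin nilotinib replicate 1 (85.6 and -14.5) lay nearer to the mock nilotinib libraries (90.6 to 95.6 and -6.9 to -13.6) than to replicates 2 (71.2 and -45.2) and 3 (63.3 and -63.9) of its own group, and its TFRC level was 2845 CPM against 518.9 and 428.6. The part of this library in the comparison of hemin with nilotinib is given there by its omission. The model's biological coefficient of variation came to 0.198. Among the members tested, NLRC5, IFIT1, IFIT5 and MX1, with few counts in DMSO, carried the largest SE in both nilotinib comparisons and with hemin alone. In the interaction IFIT5, MX1 and NLRC5 had the largest SE, at 0.81, 0.77 and 0.74. The SE of 0.27 computed for IFIT1 there rests on a log2 fold change of 0.005. Computed from a value so near 0, it does not measure the precision of IFIT1. For hemin with nilotinib the SE was 0.36 for NLRC5 and 0.37 for IRF9, so the order did not hold there.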

How the data were processed

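The authors deposited raw counts of reads per gene for the 12 libraries, and every value here starts from these counts. The submitters' processing notes name the genome build GRCh38 p12 and DESeq2, and the aligner is not given in the sources used here. FPKM tables of the series were not used here. Gene lengths come from the count table, and positions and overlaps from GENCODE 29, where the position and exon length of all 35 members matched.

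Genes passing edgeR's filterByExpr at a minimum count of 10 and a minimum total count of 15 were scaled by TMM factors and tested in edgeR 4.0.16 (R 4.3.3) by the quasi-likelihood method, with a mean for each group and no block. Tests were two-sided, with Benjamini-Hochberg adjustment over all genes tested and a threshold of 0.05. Comparisons of mock and hemin groups share libraries with those of nilotinib and DMSO. An exact permutation test between groups of 3 libraries cannot give a p below 0.1 and was not used. The procedure was tested on simulated data.

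Members and lists were chosen with earlier results of these data known. Every member is named. Values by library are given for members with a group mean of at least 1 CPM that passed the threshold in a pairwise comparison, and others by range or counts. From the pathway lists (interferon ligands, receptors and kinases, nucleic acid sensing, other interferon-stimulated genes, ISG15 conjugation, other MHC class I processing, MHC class II, feedback, and neighbors of the type I interferon genes), the 4 largest rises and 4 largest falls with a mean of at least 1 CPM are named in each nilotinib comparison and in hemin without nilotinib. The sensing list had 17 genes found by symbol, and MB21D1 was not matched.

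Alternatives were DESeq2 1.42.0, RLE or upper-quartile factors, every gene with any count, only genes at 10 counts or more in each library, the 2 groups compared alone, a block for the replicate number, and the omission of each library in turn. Deviations from group means correlated between libraries of the same number at 0.199 to 0.263 for hemin with nilotinib, where every pair was over 0.1, and in at least 1 pair at 0.1 or less in the other pairwise comparisons. The values reported for hemin with nilotinib come from the fit without a block, and the block is an alternative. Python 3.11.15, pandas 2.3.3, numpy 2.4.6 and matplotlib 3.10.9 were used for annotation, promoters and figures.

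One of the fixed lists of cell type markers is not reported here.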

Additional observations from a re-analysis of the deposited data

Results flagged for a closer look

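For 11 members the effect of nilotinib differed between cells with and without hemin by the interaction test of edgeR, on the log2 scale. The difference was positive for IFIT3 (1.48), OAS3 (0.94), TAP2 (0.86) and TAPBP (0.72). It was negative for HLA-B (-2.79), NLRC5 (-2.36), IFIT5 (-2.25), DDX58 (-1.27), IFI27 (-1.22), HLA-C (-1.13) and IFI35 (-0.74). Beside these 11 of 30 members tested, 30.1% of all genes passed the same test. The calls of IFI35, HLA-C, NLRC5, TAP2 and IFIT5 were lost when single libraries were left out, as given in the report with their values. Why the effects differ was not tested, and hemin, time of culture and length of exposure to nilotinib cannot be told apart in this test.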

How the results depend on the processing

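Over single genes, 174 results (99 of them called) were recomputed 3247 times. In 3058 the direction and the side of the threshold were kept, in 90 a call was lost, in 29 one was gained, and in 70, from 22 results without a call, the sign turned. Of the 1856 values for called results 1766 kept the call and 90 lost it, with no change of sign. With a library left out, 19 called results lost their call.

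The comparison of hemin with nilotinib depended most on the settings. Its 1208 genes came to 1974 with DESeq2, 1987 with every gene with any count, 183 in a fit of the 2 groups compared, and 213 to 2793 with each library left out. Its 2 members called lower came to 7 with DESeq2, 0 in edgeR's fit of the 2 groups compared, and 0 to 3 with each of the 12 libraries left out. With hemin without nilotinib the 7 members called higher came to 3 to 8, and in the interaction the 7 called lower came to 3 to 7. With a replicate block, hemin with nilotinib had 1587 genes and 2 members called lower. The block ended the interaction call of IFIT5 (-2.243) and added that of TAP1 (0.688), and it changed no other call of a member. Correlations between libraries of the same number ran from 0.087 to 0.099 for nilotinib without hemin, -0.007 to 0.235 for nilotinib with hemin, and 0.085 to 0.104 for hemin without nilotinib.

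Testing every gene with any count added OASL for nilotinib with hemin (-5.05) and OAS2 for hemin without nilotinib (4.64), each against a group without a count.

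Signs turned only where the log2 fold change was not called. Upper-quartile factors gave HLA-C 0.029 and TAP1 0.063 for nilotinib without hemin, IRF9 0.031 and ISG20 0.007 for hemin without nilotinib, DDX58 0.001 and IRF7 0.012 for hemin with nilotinib, and IRF1 -0.013 and IFIT1 -0.124 for the interaction. These factors shifted the median of all genes by 0.109 for nilotinib without hemin, 0.12 for hemin without nilotinib and -0.12 for the interaction. With them the share of calls that were higher was 57% in place of 48.6%, 55.6% in place of 48% and 46.3% in place of 56.7% in the same order, so which direction had more calls over all genes depended on the scaling. Testing every gene with any count gave ISG15 -0.02 and IFITM3 -0.022 for hemin without nilotinib and STAT2 0.028 for the interaction. For hemin with nilotinib, genes at 10 counts or more in each library gave DDX58 0.025, IRF7 0.026 and USP18 0.011, the replicate block gave DDX58 0.003 and USP18 0.001, and the 2 groups compared gave DDX58 0.009 and IRF7 0.007. DESeq2 gave IFIT1 -0.04 and RLE factors IFIT1 -0.047 for the interaction.

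Ranges with each library left out that crossed 0 were, for nilotinib without hemin, HLA-C -0.244 to 0.095, and for nilotinib with hemin, ISG20 -0.008 to 0.257. For hemin without nilotinib they were ISG15 -0.075 to 0.151, MX2 -0.017 to 0.491, ISG20 -0.267 to 0.071, IFITM3 -0.255 to 0.272, IRF9 -0.254 to 0.128 and IFITM2 -0.14 to 0.437. For hemin with nilotinib they were DDX58 -0.135 to 0.11, IFITM2 -0.262 to 0.119, USP18 -0.151 to 0.078, IRF7 -0.388 to 0.283, HLA-E -0.535 to 0.009, IRF9 -0.041 to 0.844 and IFITM1 -0.399 to 0.016. For the interaction they were STAT2 -0.14 to 0.115, IFIT1 -0.451 to 0.487, IRF1 -0.065 to 0.305, IFITM2 -0.516 to 0.059, IFITM1 -0.078 to 0.404 and IRF7 -0.591 to 0.047. Why these values moved was not tested.

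Depth limits the members with few counts: OAS1, OAS2, OASL, IFI44 and IFI44L did not pass the filter, and NLRC5, IFIT1, IFIT5 and MX1 were measured against few counts in DMSO. IFIT2 had 18 counts in hemin DMSO. Each group has 3 libraries of 1 cell line, RNA was measured and protein was not analysed here, and reads shared between overlapping genes could not be separated.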
